A study of Mus musculus with 6 samples.

Results

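E2f1, E2f2, E2f3, Rb1, Rbl1, Rbl2 and Cdkn1a are reported targets of the microRNA cluster mir-17~92 or close relatives of such targets, and their levels were followed on 6 mouse microarrays. All probes whose gene name or RefSeq accession named one of these 7 genes were taken, whatever their values, which gave 10 of the 55681 probes and 7 of the 19897 genes that could be named. E2f3, Rbl1 and Cdkn1a had 2 probes each, and the other 4 genes had 1 each. Of the 10 probes, 9 rose above background on 2 arrays or more and were tested.

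The cells came from the spinal cord of mouse embryos at E12.5, in mid-gestation. Every embryo carried Hb9::GFP, a reporter in which the promoter of the motor neuron gene Hb9 drives green fluorescent protein, and cells were sorted into a GFP-on fraction (motor neurons, MN) and a GFP-off fraction (non-motor neurons, non-MN). The groups were mir-17~92 -/- ; Hb9::GFP motor neurons (2 arrays), WT ; Hb9::GFP motor neurons (2 arrays), mir-17~92 -/- ; Hb9::GFP non-motor neurons (1 array) and WT ; Hb9::GFP non-motor neurons (1 array). The genotypes are called KO-labelled and WT-labelled here, since the arrays could not check the deletion. The probe of the cluster's host transcript was higher on the KO-labelled arrays, but whether it lies within the deleted part is not known. The labels do not say how many embryos were pooled or whether replicates came from separate embryos, so p-values measure only the spread between these arrays, which may be technical.

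E2F transcription factors switch on the genes that a cell needs to enter S phase, and E2f1, E2f2 and E2f3 are the activators of the family. The pocket proteins Rb1, Rbl1 (p107) and Rbl2 (p130) bind E2F factors and keep those genes silent until cyclin-dependent kinases phosphorylate them, and Cdkn1a (p21), a target of p53, inhibits these kinases. Motor neurons leave the cell cycle as they form, whereas the rest of the embryonic cord still holds dividing progenitors.

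The cluster encodes 6 microRNAs whose main arms are shown because their seeds, bases 2 to 8 from the 5′ end and given in capitals, decide which transcripts they can pair with. They lie on chromosome 14, plus strand, and sequences and coordinates are from RefSeq, build GRCm38.p6.
miR-17-5p (chr14:115043684-115043706): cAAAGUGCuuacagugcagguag
miR-20a-5p (chr14:115044183-115044205): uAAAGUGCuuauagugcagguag
miR-18a-5p (chr14:115043867-115043889): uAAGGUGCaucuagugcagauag
miR-19a-3p (chr14:115044048-115044070): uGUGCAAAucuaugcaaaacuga
miR-19b-3p (chr14:115044358-115044380): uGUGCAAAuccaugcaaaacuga
miR-92a-3p (chr14:115044476-115044496): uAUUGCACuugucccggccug

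miR-17-5p and miR-20a-5p share the seed AAAGUGC, and it is through this seed that E2f1, Rbl2 and Cdkn1a have been reported as targets, in part from work in human cells. miR-19a-3p and miR-19b-3p share another seed, and miR-18a-5p and miR-92a-3p each have one of their own. The AAAGUGC seed is also carried by microRNAs encoded outside the deleted cluster, of which 3 are shown, all on minus strands of the same build.
miR-106a-5p (chrX:52742541-52742563): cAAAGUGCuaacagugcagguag
miR-106b-5p (chr5:138165787-138165807): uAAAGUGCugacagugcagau
miR-93-5p (chr5:138165574-138165596): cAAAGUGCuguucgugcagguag

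E2F-regulated genes often carry an E2F motif near their transcription start, and Rbl1 and E2f3 did so here, E2f3 at 1 of its 2 RefSeq starts. The letters TTTCCCGC, TTTCGCGC, TTTGCCGC and TTTGGCGC were searched on both strands in the 250 bases before each RefSeq start. A match stood in 2 of the 6 member genes that had an entry, in 7 of 17 replication genes (41.2%) and in 583 of 27025 genes in all (2.16%). Both members with a match are shown from shortly before the match to the base before the start, 5′ to 3′ on the gene's own strand (minus for both), with the matching letters in capitals.
Rbl1 (chr2:157204535-157204564): caagaaggcgatTTTCGCGCgctttgtcgc
E2f3 (chr13:29986064-29986086): tttgaaaagccgGCGGGAAAtct

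In the E2f3 stretch the capitals are TTTCCCGC read on the opposite strand. These matches are descriptions of the letters, not of a bound site.

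Before any gene was compared, the labels and arrays were checked. Mir17hg, the host transcript of the cluster, had log2 levels of 4.55 and 4.78 in KO-labelled motor neurons, against -2.38 (not well above background) and 2.73 in WT-labelled motor neurons. In non-motor neurons it stood at 4.62 on the KO-labelled array and -1.23 on the WT-labelled array. A log2 level here is the log2 processed signal minus the 75th percentile of its array, so that 0 marks the 75th percentile. In RefSeq 4 of the 6 hairpins lie before the annotated Mir17hg transcript, 1 crosses its start and 1 lies inside it, and whether the probe lies within the deleted part is not known here, so its level cannot check the deletion. Both WT-labelled motor neuron arrays stood apart: they correlated with the other 4 arrays at 0.736 to 0.903 over 19075 probes, while those 4 correlated among themselves at 0.930 to 0.984. Both KO-labelled motor neuron arrays lay in 1 row of the slide and the other 4 arrays in the other row, so slide row and genotype label cannot be told apart in motor neurons. Of the motor neuron markers, Chat, Slc18a3, Lhx3 and Lhx4 were higher in motor neurons than in non-motor neurons by limma with adjusted p under 0.05. Isl1, Isl2, Slc5a7 and Prph were not called (0.81 to 2.12 on the log2 scale), and no probe was matched to Mnx1.

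Among the members, 1 of the 2 Rbl1 probes and the tested Cdkn1a probe were called higher on the KO-labelled motor neuron arrays. Of the 2 E2f3 probes, 1 was called lower. E2f1, E2f2, Rbl2 and the second Rbl1 probe overlapped between the labels. Of the 9 probes tested by limma, with Benjamini-Hochberg adjustment over all 33264 probes and a threshold of 0.05, 2 were called higher, 1 lower and 6 not. Over all probes tested 10.6% were called higher and 14.2% lower, and the median difference was 0.05 on the log2 scale over the 9 probes, against -0.20 over all. In 5 of the 9 the labels did not overlap, which was so for 69.5% of all probes. For any single probe, 2 against 2 arrays allow an exact permutation p of 0.333 at the lowest, so each call rests on the spread shared across probes.

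**Figure D1:**
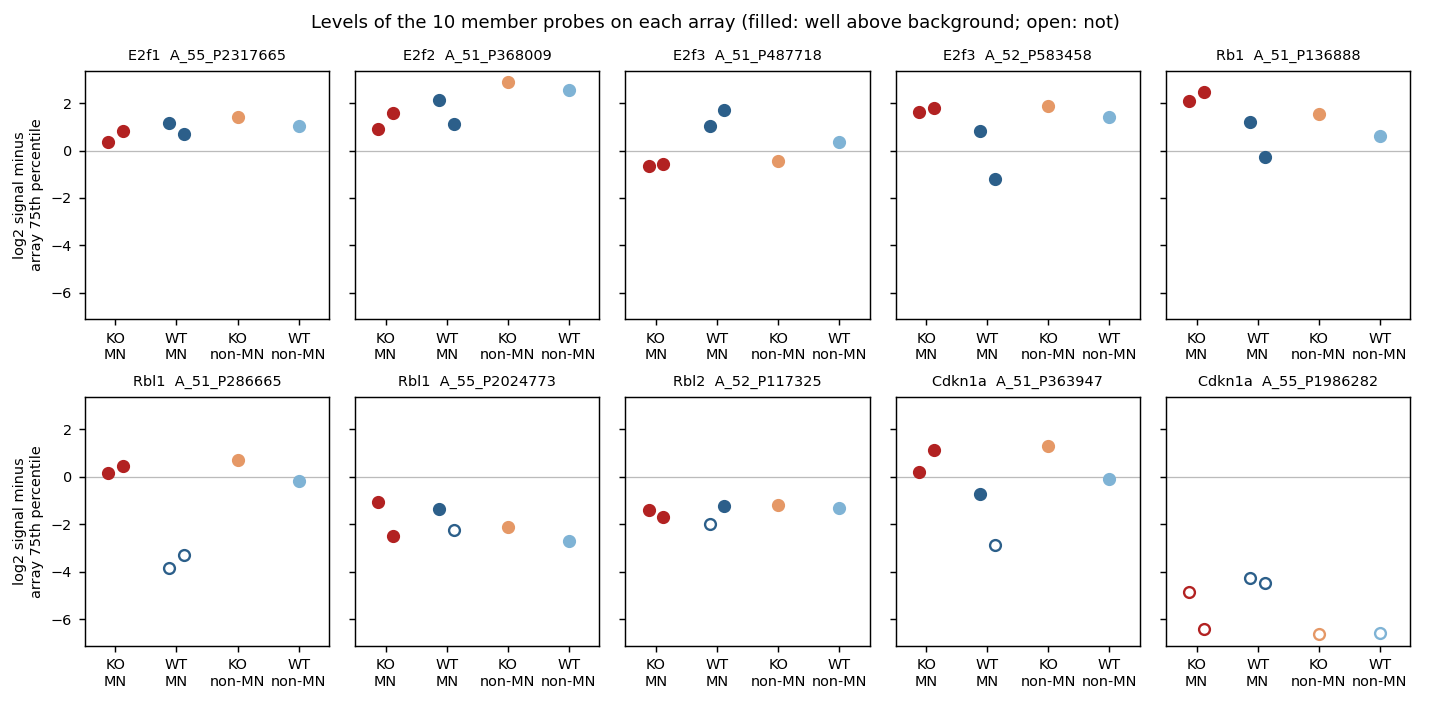
Log2 level (signal minus the array's 75th percentile) of each of the 10 probes on the 6 arrays, with KO-labelled (KO) groups left of WT-labelled (WT) ones; each point is 1 array, filled where the probe was well above background and open where it was not. The first Rbl1 probe is open on both WT-labelled motor neuron arrays, and the second Cdkn1a probe is open on all 6.

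E2f1 is the activator most often linked to mir-17~92. Its probe A_55_P2317665 had log2 levels of 0.38 and 0.83 in KO-labelled motor neurons, against 1.15 and 0.71 in WT-labelled motor neurons. It stood at 1.40 in KO-labelled and 1.03 in WT-labelled non-motor neurons. The labels overlapped in motor neurons, and the fitted difference of -0.33 ± 0.53 (SE) did not pass the test (limma adjusted p = 0.669, 95% interval -1.51 to 0.86). A rise of up to 0.86 on the log2 scale therefore lay within the interval.

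E2f2, the activator whose probe was furthest apart between the sorted fractions, had log2 levels of 0.91 and 1.61 in KO-labelled motor neurons, against 2.14 and 1.13 in WT-labelled motor neurons. Its probe A_51_P368009 stood at 2.90 in KO-labelled and 2.54 in WT-labelled non-motor neurons. The genotype labels overlapped in motor neurons, with a difference of -0.38 ± 0.58 (limma adjusted p = 0.652, 95% interval -1.68 to 0.93). All 4 motor neuron arrays lay below both non-motor-neuron arrays. Such a separation was seen downwards for 14.8% and upwards for 9.42% of all probes. The E2f2 difference of -1.28 ± 0.51 did not pass (limma adjusted p = 0.225). Its difference between fractions was -1.64 among KO-labelled arrays alone and -0.91 among WT-labelled arrays alone, and neither passed. The summed level of 8 red cell markers also differed between the fractions, at 247 to 578 times the array's 75th percentile in motor neurons, against 1387 and 1515 in non-motor neurons, with 5 of 8 called lower in motor neurons. Their part in the E2f2 values was not tested.

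E2f3, the third activator, was measured by 2 probes that gave opposite differences between the labels in motor neurons, although the files assign both to the same RefSeq transcript, NM_010093. Probe A_51_P487718 had log2 levels of -0.66 and -0.55 in KO-labelled motor neurons, against 1.05 and 1.70 in WT-labelled motor neurons. It stood at -0.43 in KO-labelled and 0.37 in WT-labelled non-motor neurons. All 3 KO-labelled arrays thus lay below all 3 WT-labelled ones, as for 17.4% of the probes tested. The difference in motor neurons was -1.98 ± 0.53 (limma adjusted p = 0.0289, 95% interval -3.17 to -0.79). It was called also without WT-labelled replicate 1 (-2.31), but not without any other motor neuron array (-2.04 to -1.66).

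The other E2f3 probe, A_52_P583458, had log2 levels of 1.61 and 1.78 in KO-labelled motor neurons, against 0.84 and -1.19 in WT-labelled motor neurons. It stood at 1.87 in KO-labelled and 1.43 in WT-labelled non-motor neurons, so that here all 3 KO-labelled arrays lay above all 3 WT-labelled ones, as for 10.8% of the probes tested. The difference of 1.87 ± 0.69 in motor neurons did not pass the test (limma adjusted p = 0.0736, 95% interval 0.31 to 3.43). It depended on WT-labelled replicate 2, without which it was 0.86, and it was called without WT-labelled replicate 1, at 2.89. Both probes were well above background on all 6 arrays, so a direction for E2f3 cannot be given from these data.

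The difference between the 2 E2f3 probes, the first minus the second, was -2.27 and -2.33 in KO-labelled motor neurons, against 0.22 and 2.90 in WT-labelled motor neurons. In non-motor neurons it was -2.30 on the KO-labelled array and -1.05 on the WT-labelled one. Its size on 1 array includes how brightly each probe binds, and its change between arrays is free of that only where both signals stand far above background. The raw signal of the first probe was 66 on KO-labelled motor neuron replicate 1, over a local background of 28. That of the second was 64 on WT-labelled motor neuron replicate 2, over 29. The KO-labelled arrays of both fractions lay within 0.063 of each other, and the WT-labelled motor neuron arrays were far from them and from each other. Disagreement of this kind was found for other genes too: of 3887 genes with at least 2 tested probes, 535 (13.8%) had 1 probe over 2-fold higher and another over 2-fold lower, and 117 (3.01%) had probes called in both directions.

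**Figure D2:**
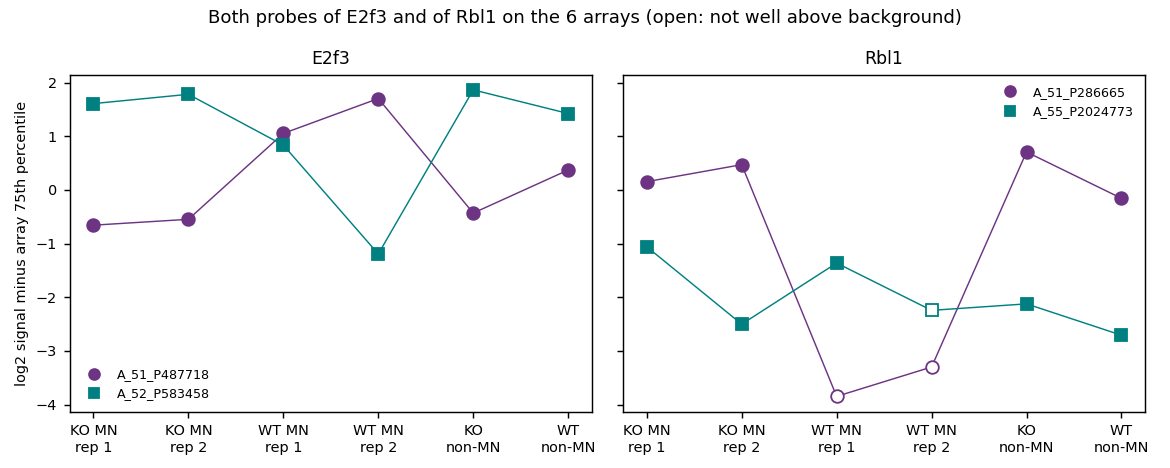
Log2 level (signal minus the array's 75th percentile) of both probes of E2f3 (left) and of Rbl1 (right) on the 6 arrays, with lines joining the values of 1 probe; open symbols were not well above background. The E2f3 probes cross on the WT-labelled motor neuron arrays, and the first Rbl1 probe lies below the second on those arrays alone.

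Rb1, the retinoblastoma protein that binds the activator E2Fs, was measured by probe A_51_P136888 on 10 spots per array. Its log2 levels were 2.10 and 2.46 in KO-labelled motor neurons, against 1.23 and -0.28 in WT-labelled motor neurons. It stood at 1.53 in KO-labelled and 0.63 in WT-labelled non-motor neurons, so all 3 KO-labelled arrays lay above all 3 WT-labelled ones. The spots of 1 array differed by an SD of 0.039 to 0.142, far less than the gap of 1.50 between the WT-labelled motor neuron replicates. The difference of 1.81 ± 0.62 in motor neurons missed the threshold (limma adjusted p = 0.0597, 95% interval 0.41 to 3.20). Without WT-labelled replicate 2 it was 1.05 and not called, and without WT-labelled replicate 1 it was 2.56 and called.

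Rbl1, or p107, which works with the repressor E2Fs and is itself an E2F-regulated gene, had the lowest adjusted p of the 9 probes tested. Probe A_51_P286665 (NM_011249) had log2 levels of 0.15 and 0.47 in KO-labelled motor neurons, whereas in WT-labelled motor neurons it was not well above background on either array (-3.85 and -3.30). It stood at 0.71 in KO-labelled and -0.16 in WT-labelled non-motor neurons, so that the WT-labelled motor neurons lay far below the other 4 arrays. The probe was called higher in KO-labelled motor neurons (limma adjusted p = 0.00850), a test of the fitted difference. As processed here, the mean of the KO-labelled arrays was 5.72-fold over a floor. The floor is a mean over the WT-labelled arrays of the lowest signal called well above background there (-2.10 and -2.30). Signals not well above background can lie over it, as Rbl2 did at -1.97 on WT-labelled replicate 1. The fold is therefore no strict lower bound. The fitted difference itself rests on signals near background and is not a measured size. The call was also made by limma without each motor neuron array in turn, always against such signals, and it was lost with normexp background correction. Raw signals were 101 and 776 on the KO-labelled motor neuron arrays, and 37 and 36.5 on the WT-labelled ones, where the local background was 25 and 26.

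The second Rbl1 probe, A_55_P2024773 (NM_001139516), is annotated to another Rbl1 transcript and did not show this pattern. Its log2 levels were -1.06 and -2.50 in KO-labelled motor neurons, against -1.36 and -2.24 (not well above background) in WT-labelled motor neurons, and the labels overlapped. It stood at -2.12 in KO-labelled and -2.71 in WT-labelled non-motor neurons. The difference in motor neurons was 0.02 ± 0.64 (limma adjusted p = 0.982, 95% interval -1.42 to 1.46). The first probe minus the second was 1.21 and 2.97 in KO-labelled motor neurons, against -2.49 and -1.06 in WT-labelled motor neurons, 2.83 in KO-labelled and 2.55 in WT-labelled non-motor neurons. The call for Rbl1 therefore rests on 1 of its 2 probes, and whether the 2 transcripts differ was not tested.

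Rbl2, or p130, the pocket protein of resting cells and a reported target of the cluster, had log2 levels of -1.41 and -1.70 in KO-labelled motor neurons, against -1.97 (not well above background) and -1.24 in WT-labelled motor neurons. Probe A_52_P117325 stood at -1.17 in KO-labelled and -1.32 in WT-labelled non-motor neurons. Its 6 values lay within 0.80 of each other, the narrowest span of the 9 probes tested. The difference in motor neurons was 0.05 ± 0.54 (limma adjusted p = 0.954), and its 95% interval of -1.16 to 1.26 leaves room for changes past 2-fold either way.

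Cdkn1a, or p21, was higher in KO-labelled than in WT-labelled motor neurons on probe A_51_P363947 (NM_007669), which was printed on 10 spots per array. Its log2 levels were 0.22 and 1.15 in KO-labelled motor neurons, against -0.74 and -2.90 in WT-labelled motor neurons. It stood at 1.29 in KO-labelled and -0.09 in WT-labelled non-motor neurons, so all 3 KO-labelled arrays lay above all 3 WT-labelled ones. The difference in motor neurons was 2.50 ± 0.74 on the log2 scale (limma adjusted p = 0.0394, 95% interval 0.83 to 4.18). It was 3.58 without WT-labelled replicate 1, which leaves only the array not well above background, and 2.97 without KO-labelled replicate 1, both called. It was 2.04 without KO-labelled replicate 2 and 1.43 without WT-labelled replicate 2, neither called.

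The size of the Cdkn1a difference depended on signals near background. On WT-labelled motor neuron replicate 2 the probe was not well above background in any of the 9 spots used, and the only spot above it had been left out as irregular. Raw spot signals were 91 to 113.5 and 1044 to 1313 on the KO-labelled motor neuron arrays, and 52 to 74.5 and 35 to 56 on the WT-labelled ones, over a local background of 24.5 to 28.5 on the 6 arrays. The spot SD was 0.114 and 0.056 on the KO-labelled motor neuron arrays, against 0.257 and 0.383 on the WT-labelled ones, all smaller than the gap of 2.16 between the WT-labelled motor neuron replicates. The second Cdkn1a probe, A_55_P1986282 (NM_001111099), was not well above background on any array and was not tested, so it neither repeats nor contradicts the first.

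**Figure D3:**
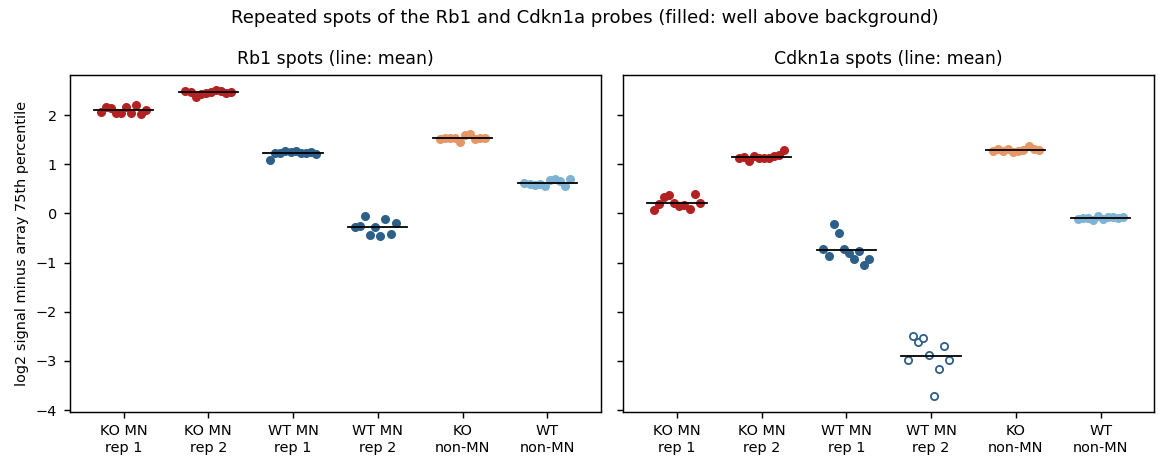
Log2 level (signal minus the array's 75th percentile) of the single spots of the Rb1 probe (left) and of the first Cdkn1a probe (right) on each array, with a line at the mean of the spots used; open circles were not well above background. Spots of 1 array lie close together, and the arrays of 1 group, above all the WT-labelled motor neuron pair, lie further apart than the spots do.

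In non-motor neurons, with 1 array for each label, there was no replicate check, and values alone are given. The first E2f3 probe was lower on the KO-labelled array (-0.80 on the log2 scale), and the other tested probes were 1.11-fold to 2.61-fold higher there. How many of all probes were higher on that array was not counted, so nothing about the members is drawn from these signs. Cdkn1a was the only member past 2-fold, at 2.61-fold higher, where 2.69% of all probes were past 2-fold higher and 5.99% past 2-fold lower. Rb1 was at 1.87-fold and the first Rbl1 probe at 1.82-fold, while E2f1, E2f2 and Rbl2 were between 1.11-fold and 1.29-fold. Rb1, the first Rbl1 probe, Cdkn1a and both E2f3 probes, whose labels did not overlap in motor neurons, had the same sign here, and E2f1 and E2f2 had the other sign. Over both fractions, 4 of the 9 probes (Rb1, Cdkn1a, the first of Rbl1 and the second of E2f3) had all 3 KO-labelled arrays above all 3 WT-labelled ones, and 1 had them below, against 10.8% and 17.4% of all probes.

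Whether the label difference itself differed between fractions was tested as an interaction, and no member passed. Adjusted p-values were 0.528 to 0.983 by limma, the lowest for the first Rbl1 probe, the only one with an unadjusted p under 0.05. No probe of the 33264 passed limma's test here (0% called), although 2807 had an unadjusted p under 0.05. A label difference that differs between fractions is therefore not shown for any member.

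Between motor neurons and non-motor neurons, fitted with the genotype label as a term, none of the 9 probes passed, where 0.649% of all probes were called higher and 0.204% lower. Of the 9, 6 had a fitted difference below 0, 2 had an unadjusted p under 0.05 (E2f2 and the first Rbl1 probe), and adjusted p-values were 0.175 to 0.793. The median difference was -0.45 over the 9 probes, against -0.09 over all probes tested. For the first Rbl1 probe the difference was -1.91 ± 0.66 (limma adjusted p = 0.175), with 2 of the 4 motor neuron arrays not well above background. It was -0.40 among KO-labelled arrays alone, and among WT-labelled arrays alone neither motor neuron value was well above background. Cdkn1a averaged -1.17 ± 0.66 (limma adjusted p = 0.353), and was -0.61 among KO-labelled arrays and -1.73 among WT-labelled arrays. In such sorted bulk samples, fewer cells of a type and less RNA per cell cannot be told apart. Within each label, motor neuron replicate 1 carries the same tag as the GFP-off sample, with no meaning given for it. Over those 4 arrays, with the tag as a block, again no member passed, at -1.20 for E2f2 and -2.12 for the first Rbl1 probe. Neural crest and glial precursor markers moved with the fraction too: their summed level was 24.6 to 52.0 in motor neurons, against 2.78 and 3.30 in non-motor neurons, with Sox10 and Foxd3 of 5 called higher. Their part in the members' values was not tested.

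**Figure D4:**
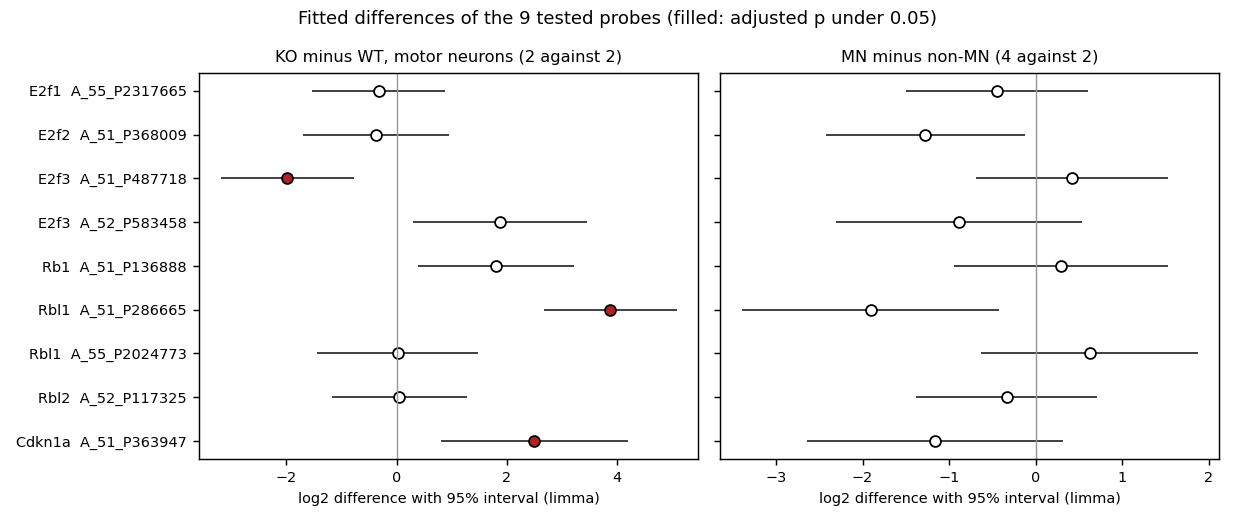
Fitted log2 differences of the 9 tested probes with 95% intervals from limma, KO-labelled minus WT-labelled motor neurons (left, 2 arrays against 2) and motor neurons minus non-motor neurons (right, 4 against 2); filled points passed at an adjusted p under 0.05. On the left the first Rbl1 value rests on signals not well above background in WT-labelled motor neurons, the E2f3 probes lie on opposite sides of 0, and on the right no point is filled.

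The patterns of the members across the 6 arrays were compared with those of other genes, using the brightest probe of each of 10136 genes above background on every array and the root mean square difference of log2 values centred on their own mean. E2f1 was closest to Aldh5a1 (0.076) and Nans (0.083), and E2f2 to Fras1 (0.145) and Tnfrsf10b (0.148). The second E2f3 probe was closest to Eif4e (0.092) and Man1a2 (0.097), and Rb1 to Cnrip1 (0.165) and Zc2hc1a (0.184). Rbl1, Rbl2 and Cdkn1a had no probe above background on all 6 arrays and were not compared.

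The genes around these members were described through 6 lists with 61 tested genes, each by its brightest probe. Between the labels in motor neurons 10 of the 61 (16.4%) were higher by limma and none lower, where 15% of all genes by that choice of probe were called higher and 6.57% lower. The median difference was 0.88 over the 61 genes, against 0.34 over all genes by that choice of probe. The medians of the 6 lists ran from 0.15 to 1.27. Counts of called genes in each list below are to be read against the same shares of 15% and 6.57%. None of the 61 passed between motor neurons and non-motor neurons, where 0.791% of all genes were called higher and 0.315% lower (lowest adjusted p of the 61, 0.101). At an unadjusted p under 0.05 limma had 21 of the 61 (34.4%) between the labels in motor neurons, 19 higher and 2 lower, against 36.1% of all genes. Between fractions it had 13 of the 61 (21.3%), 1 higher and 12 lower in motor neurons, against 20.4% of all genes. Other tested probes were not counted. Between the labels they had the opposite sign for E2f7 (-2.17), Ccne1 (-1.39), Trp53inp1 (-1.51), Ccnd3 (2.73), Mybl2 (0.32) and Tfdp2 (0.80). Lin52 (2.85 and -3.61) and Cdk1 (-1.57 and 0.43) had them in both directions. Those of Rbbp4 (3.29), Cdk4 (1.44 and 3.16) and Cdc6 (1.08) kept the sign.

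Of the other E2F factors and their dimer partners, 1 of 7 was higher in KO-labelled motor neurons and none lower, with a median of 0.43. It was E2f5, a repressor that works with Rbl1 and Rbl2 (limma adjusted p = 0.0150), at 3.08-fold over the floor used for Rbl1. Like the first Rbl1 probe, E2f5 was not well above background in either of the WT-labelled motor neuron samples. By its brightest probe, none of the 6 tested genes of the MuvB and DREAM complex, which joins Rbl1 or Rbl2 to E2F targets, was called. Their median was 0.15.

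Of the other kinase inhibitors 1 of 6 was higher and none lower (median 0.80): Cdkn2c, which inhibits the cyclin D kinases, by 1.99 ± 0.58 (limma adjusted p = 0.0383), although it was not well above background on WT-labelled replicate 2. Of the G1 cyclins and kinases 2 of 7 were higher and none lower (median 0.67). Ccnd1, the cyclin that starts the phosphorylation of pocket proteins and a reported target of the cluster, had log2 levels of 3.77 and 3.73 in KO-labelled motor neurons, against 0.60 and 0.68 in WT-labelled ones, a difference of 3.11 ± 0.51 (limma adjusted p = 0.00940). On the non-motor-neuron arrays Ccnd1 stood at 3.64 (KO-labelled) and 3.42 (WT-labelled), close to the KO-labelled motor neurons. Cdk2, the kinase of cyclin E, was called higher (limma adjusted p = 0.0442), at 2.69-fold over the same floor.

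Of 20 replication genes induced by E2F, 4 were higher in KO-labelled motor neurons and none lower, with a median of 1.27. Over all genes, by their brightest probe, 15% were called higher and 6.57% lower. Rrm1, a subunit of ribonucleotide reductase, was called at 2.21 ± 0.63 (limma adjusted p = 0.0355). Also called were the replicative helicase subunits Mcm4 (2.07 ± 0.60) and Mcm2 (2.06 ± 0.65), and the licensing factor Cdc6 (2.04-fold over the floor). The summed level of the 20 genes, in multiples of the array's 75th percentile, was 152 and 201 in KO-labelled motor neurons, against 131 and 54.2 in WT-labelled motor neurons. It was 278 in KO-labelled and 209 in WT-labelled non-motor neurons, and lowest on WT-labelled motor neuron replicate 2, as for Rb1, Cdkn1a and the second E2f3 probe.

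Of 15 p53 genes and targets other than Cdkn1a, 2 were higher and none lower, with a median of 1.20. Ccng1, a cyclin induced by p53, was called higher (limma adjusted p = 0.00850), at 3.81-fold over the floor. Trp53inp1, a p53 target and a reported target of the cluster, was higher by 2.27 ± 0.63 on its brightest probe (limma adjusted p = 0.0325), but its other probe gave -1.51. Trp53 itself was at -0.60 ± 0.51 (limma adjusted p = 0.407).

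**Figure D5:**
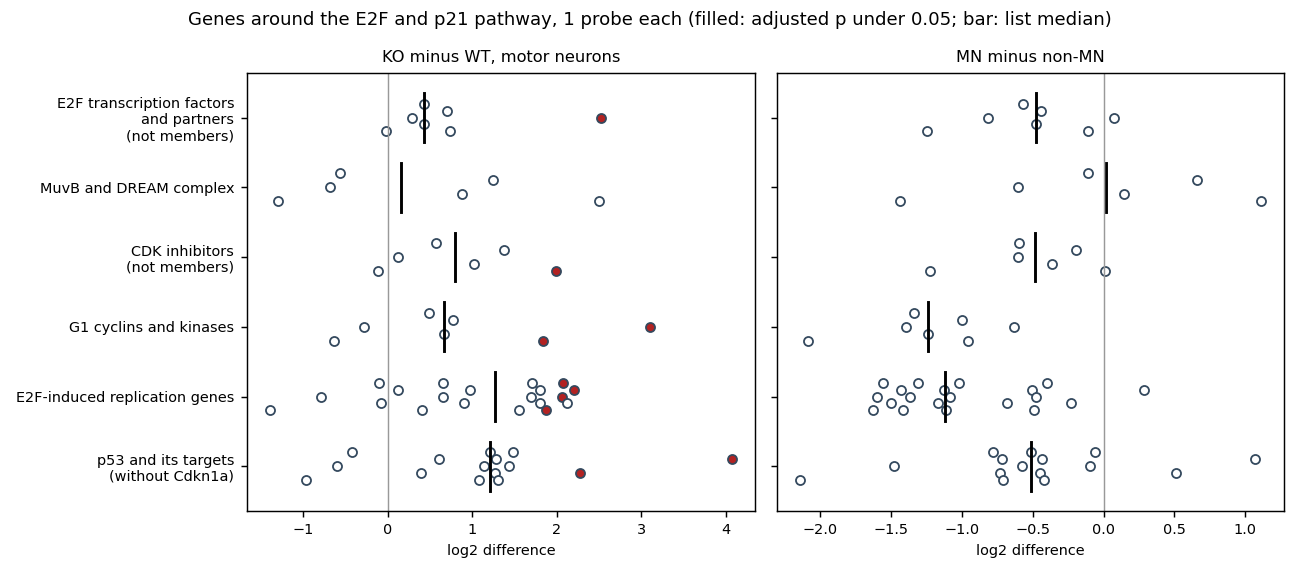
Fitted log2 differences of the 61 tested genes in 6 lists, 1 point a gene by its brightest probe, KO-labelled minus WT-labelled motor neurons (left) and motor neurons minus non-motor neurons (right); filled points passed limma's test at an adjusted p under 0.05 and the bars are list medians. Of the 20 replication genes 4 are filled on the left and none on the right. Over all genes 15% were called higher and 6.57% lower in the comparison on the left.

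Some markers of other cell types were called between the genotype labels in motor neurons as well. Over all genes, by their brightest probes, 15% were called higher and 6.57% lower. The summed level of 10 microglia and macrophage markers was 25.3 and 27.7 in KO-labelled motor neurons, against 8.70 and 13.4 in WT-labelled ones, and 6 of the 10 were called higher and none lower. Of the 10, 9 and 10 were well above background on the KO-labelled arrays, against 6 on each WT-labelled array, and the sum was 26.8 in KO-labelled and 15.5 in WT-labelled non-motor neurons. The summed level of 8 neural progenitor markers was 114 and 134 in KO-labelled motor neurons, against 65.4 and 34.2 in WT-labelled ones, with 2 of 8 called higher and none lower. Those called were Sox2 and Fabp7. Vim, Hes5 and Hes1 were also above 0, while Nes (-0.98), Pax6 (-0.63) and Nkx6-1 (-0.33) were below it, none called. Of 8 motor neuron markers Isl1, Isl2, Slc5a7 and Prph were called higher and none lower. The 8 summed to 33.5 and 39.9 in KO-labelled motor neurons, against 12.04 and 8.14 in WT-labelled ones. The markers called between fractions were not called between the labels: Lhx3 was at 0.37, Lhx4 at -0.35, Chat at -0.34 and Slc18a3 at 0.47. Red cell markers summed to 578 and 247 in KO-labelled motor neurons, against 329 and 294 in WT-labelled ones, so the sums overlapped. Of the 8, 2 were called higher and none lower. Of 7 endothelial markers, Cdh5 and Cldn5 were called higher and none lower, while Kdr, the brightest, was at -2.54 (limma adjusted p = 0.0572). The endothelial sum ran the other way, at 8.42 and 14.6 in KO-labelled motor neurons, against 16.3 and 115 in WT-labelled ones. Most of each sum was Kdr, at log2 levels of 2.58 and 3.04 against 3.87 and 6.83. The direction of the sum is thus that of its Kdr probe, and the other tested Kdr probe had the opposite sign (0.52). The part of these cell types in the differences of Rbl1, Cdkn1a and the pathway genes was not tested.

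The 75th percentile of the processed signal, to which all levels are relative, was 59.9 and 505.8 on the KO-labelled motor neuron arrays, against 48.5 and 64.5 on the WT-labelled ones. It was 549.9 on the KO-labelled and 340.5 on the WT-labelled non-motor-neuron array. The spike-in controls, in log2 above that percentile, were at 6.03 and 5.13 in KO-labelled motor neurons, against 7.06 and 7.52 in WT-labelled ones. With the spike-in level as a covariate the fitted Cdkn1a difference changed sign, to -0.53 ± 1.67 (limma adjusted p = 0.9997), and Rbl1 was not called. With arrays centred on their median in place of the 75th percentile, which moved the median of all probes between the labels to 0.44, Rbl1, Cdkn1a, Rb1 and the second E2f3 probe were called higher and no member lower, while E2f1 (0.31) and E2f2 (0.26) changed sign without a call. With quantile normalization the first Rbl1 probe alone was called. With normexp background correction no member was called, at 1.16 for Rbl1 and 1.17 for Cdkn1a. Of the pathway genes given as a fold over the floor, E2f5 was then at 0.40, Cdk2 at 0.32, Cdc6 at 0.14 and Ccng1 at 0.93, none called. The folds over the floor of Rbl1 and of these genes therefore hold only for the processing used.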

How the data were processed

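Cy3-labelled total RNA was hybridised to 6 one-colour Agilent arrays on 1 slide, per the labels' protocols. Spots were quantified with Feature Extraction 10.5.1.1, per the file headers, while the submitters' processing notes name 9.1. The deposited processed signal of each spot is an intensity that was background-subtracted, per the file headers. The deposited raw median signal and local background are intensities too. The authors' deposited value table is in log2 and equals the log2 processed signal minus the 75th percentile of each array within 0.01. Deposited flags (other values, present or absent) mark spots above background, saturated or irregular.

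Irregular spots were left out, spots of a probe were averaged in log2, and the array's 75th percentile was subtracted. Of 55681 probes, 26300 were named by RefSeq accession (GRCm38.p6). The file headers name another build, so no probe coordinates are given. Probes well above background on at least 2 arrays (33264) were fitted by limma 3.58.1 (R 4.3.3; lmFit, eBayes). The 4 group means, with 2 residual degrees of freedom, gave the label difference in motor neurons and the interaction. An additive model with 3 compared fractions. The steps were tested on simulated data.

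All member probes were named, with Mir17hg, up to 4 genes a list with the largest called differences, and the 2 nearest genes in pattern. Trp53 was added after its value was seen. The members and lists were chosen with earlier results of these data known.

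Alternatives were other scalings, normexp with an offset of 50, other filters, the authors' table, a replicate block, a spike-in covariate, fewer arrays and single labels.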

Additional observations from a re-analysis of the deposited data

How the results depend on the processing

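Between the labels in motor neurons, 2 member probes were called higher and 1 lower. The counts were the same with the authors' table. The motor neuron arrays alone give the same fit by construction, since single arrays add no spread. With probes above background on every array they were again 2 and 1, of 5 probes left, but the 2 were Rb1 and the second E2f3 probe. Array medians gave 4 higher and 0 lower, quantile normalization 1 and 0, and 1 probe per gene 2 and 0. Normexp, no filter, the additive model and the spike-in covariate gave 0 and 0 each. Leaving out 1 array, with a lone array assumed to vary like the other groups, gave 1 to 4 higher and 0 to 1 lower. Of the called probes 1 changed sign, Cdkn1a with the spike-in covariate, at -0.53, against 2.50. A further 10 values of E2f1, E2f2, Rbl2 and the second Rbl1 probe, called in no setting, changed sign too. Between fractions, 0 member probes were called lower, but 1 (Rbl1, against signals not well above background and a lone array) among WT-labelled arrays alone, and 0 to 1 without 1 array. The 10 named pathway genes and Mir17hg kept their sign between the labels in each alternative that gave them a value, with 90 values called and 69 not. E2f5, Cdkn2c, Cdk2, Cdc6, Ccng1 and Mir17hg had none with probes above background on all arrays. The causes were not tested.

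Over all probes, the counts between the labels in motor neurons were 3524 higher and 4733 lower. They were 7282 and 2569 with array medians, 1578 and 392 with quantile normalization, 908 and 431 with normexp, 0 and 0 with no filter (11502 at an unadjusted p under 0.05) or the additive model (11192), and 5 and 16 with the spike-in covariate. With 1 probe per gene 1080 were lower. Without 1 array they were 951 to 5312 higher and 1155 to 6682 lower. The share of calls that were higher was 42.7%, against 73.9% with array medians, 80.1% with quantile normalization, 67.8% with normexp and 68.5% with 1 probe per gene.

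Between fractions 216 probes were higher and 68 lower. They were 336 and 191 with array medians, 0 and 0 with quantile normalization, no filter or KO-labelled arrays alone, 41 and 34 with normexp, 654 and 182 above background on all arrays, 911 and 1083 among WT-labelled arrays, and 1359 and 840 over the 4 arrays that share a label tag, with the tag as a block. With 1 probe per gene 112 were lower. Without 1 array they were 0 to 1151 higher and 0 to 651 lower. The interaction, with 0 called by limma, gave 72 higher and 58 lower with array medians, 1 higher with normexp and 1 with probes above background on all arrays, and 0 to 10 higher and 0 to 66 lower without 1 array. In the non-motor-neuron pair 895 probes were past 2-fold higher and 1991 lower, against 1837 and 1036 with array medians, 1245 lower with quantile normalization, and 181 and 702 with normexp.

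Same-numbered motor neuron arrays deviated from their group means with a correlation of -0.096 over 33264 probes, and nothing says that the numbers pair the samples. The replicate number as a block gave 4 member probes higher, 680 probes higher and 371 lower between fractions, and 17 higher and 75 lower for the interaction. Levels of Rbl1 and Cdkn1a in WT-labelled motor neurons were limited by signal near background.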
